A study of Mus musculus with 48 samples.

Results

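Enteroendocrine cells (EECs), the hormone-secreting cells of the gut epithelium, were compared here for 9 transcription factors that are known for setting regional identity along the gut. The genes were chosen by name: Pdx1, Onecut2, Gata4, Gata5, Gata6, Cdx1, Cdx2, Hnf4a and Hnf4g. All 9 were found among the 53465 genes counted, and all 9 passed the filter on low counts that left 15126 genes for testing. The cells were sorted by their yellow fluorescence from lean male mice in which a NeuroD1-driven Cre recombinase switches on EYFP, so the libraries hold cells of the NeuroD1 lineage and not every EEC. The surgery groups were sham operation with free feeding (S_al), sham operation with food restricted to match body weight (S_wm) and vertical sleeve gastrectomy (VSG), in which about 70% of the stomach is removed. Every group carried the same reporter on a C57BL6 background and went back to chow after a liquid diet around surgery. All were operated at about 20 weeks of age and sampled 6 weeks later, about 15 min after an oral load of 3 g/kg glucose. VSG mice also received weekly vitamin B12 injections, which the paper does not describe for the sham groups. Effects of VSG and of B12 therefore cannot be told apart here. EECs were taken from the duodenum (the first 5 cm of the small intestine), the ileum (its last 15 cm) and the colon with rectum, after an overnight fast, for 48 libraries from 17 mice. Per region there were 5 S_al, 5 S_wm and 6 VSG libraries, 15 mice gave all 3 regions, mouse 17 gave duodenum and mouse 24 gave ileum and colon.

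The 9 factors belong to families with known roles in gut patterning. Pdx1 is the homeobox factor of the pancreas and proximal duodenum, and Onecut2 is a cut-homeobox factor related to Onecut1 of the liver and pancreas. Gata4, Gata5 and Gata6 are zinc-finger factors of endoderm, of which Gata4 is known for keeping proximal small-intestinal gene programs from taking on ileal features. Cdx1 and Cdx2 are caudal-type homeobox factors that set intestinal against gastric fate and are known for their posterior bias, and Hnf4a and Hnf4g are nuclear receptors that act as a pair on the absorptive gene program. In GRCm38, Gata4 lies at chr14:63198922-63271692, Gata5 at chr2:180325133-180334699, Gata6 at chr18:11052064-11085635, Onecut2 at chr18:64340020-64400987, Cdx1 at chr18:61018862-61036199, Hnf4a at chr2:163506808-163572910 and Hnf4g at chr3:3508030-3658052.

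The libraries held 4648651 to 17182463 gene counts. By 11 genes known for position along the gut, none of them among the 9 factors, all 48 libraries lay nearest to their own labelled region. The labels of mouse 12 name its ileum and colon with crossed sample codes, and the tissue label was used. EEC markers were present throughout: the summed level of 12 such genes ranged from 12260 to 75430 CPM in the duodenum, from 35070 to 84930 CPM in the ileum and from 29770 to 100200 CPM in the colon, where CPM is the usual library-size-normalized count, with library sizes scaled by TMM. All 10 enterocyte markers were also detected in each region, at a summed 5423 to 48320 CPM in the duodenum, 4359 to 16650 CPM in the ileum and 414 to 931 CPM in the colon. The library with the lowest EEC sum and the highest enterocyte sum was the same one, the S_wm duodenum of mouse 27. The other 15 duodenal libraries held at most 14020 CPM of enterocyte markers and at least 39670 CPM of EEC markers. The second index of the library names partly followed region: 12 of 16 duodenal libraries carried an index that no other region had. Where leaving out mouse 27 or fitting this index changed a call or direction of a factor between regions, both values are given.

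The 9 factors differed between regions. Compared with the duodenum, 3 factors were higher and 3 were lower in the ileum, against 17.2% and 16.6% of all tested genes, or 33.8% in either direction. In the colon against the duodenum all 9 differed, 2 higher and 7 lower, against 26.8% and 28.3% of tested genes and 55.0% in either direction. In the colon against the ileum 1 was higher and 7 were lower, against 23.8% and 25.4% of tested genes and 49.2% in either direction. These calls come from edgeR's quasi-likelihood test of the mean over the 3 surgery groups (Benjamini-Hochberg adjusted p under 0.05 over all tested genes). The p-values measure the spread between animals of a group, in a fit without a term for the mouse. In CPM, the 16 libraries of each region did not overlap at all between ileum and duodenum for 4 factors, between colon and duodenum for 6 and between colon and ileum for 3. Among all tested genes such separation was seen for 1.46%, 9.75% and 7.14%. Because these are bulk libraries of sorted cells, fewer cells of a subtype and less RNA per cell cannot be told apart.

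**Figure D1:**
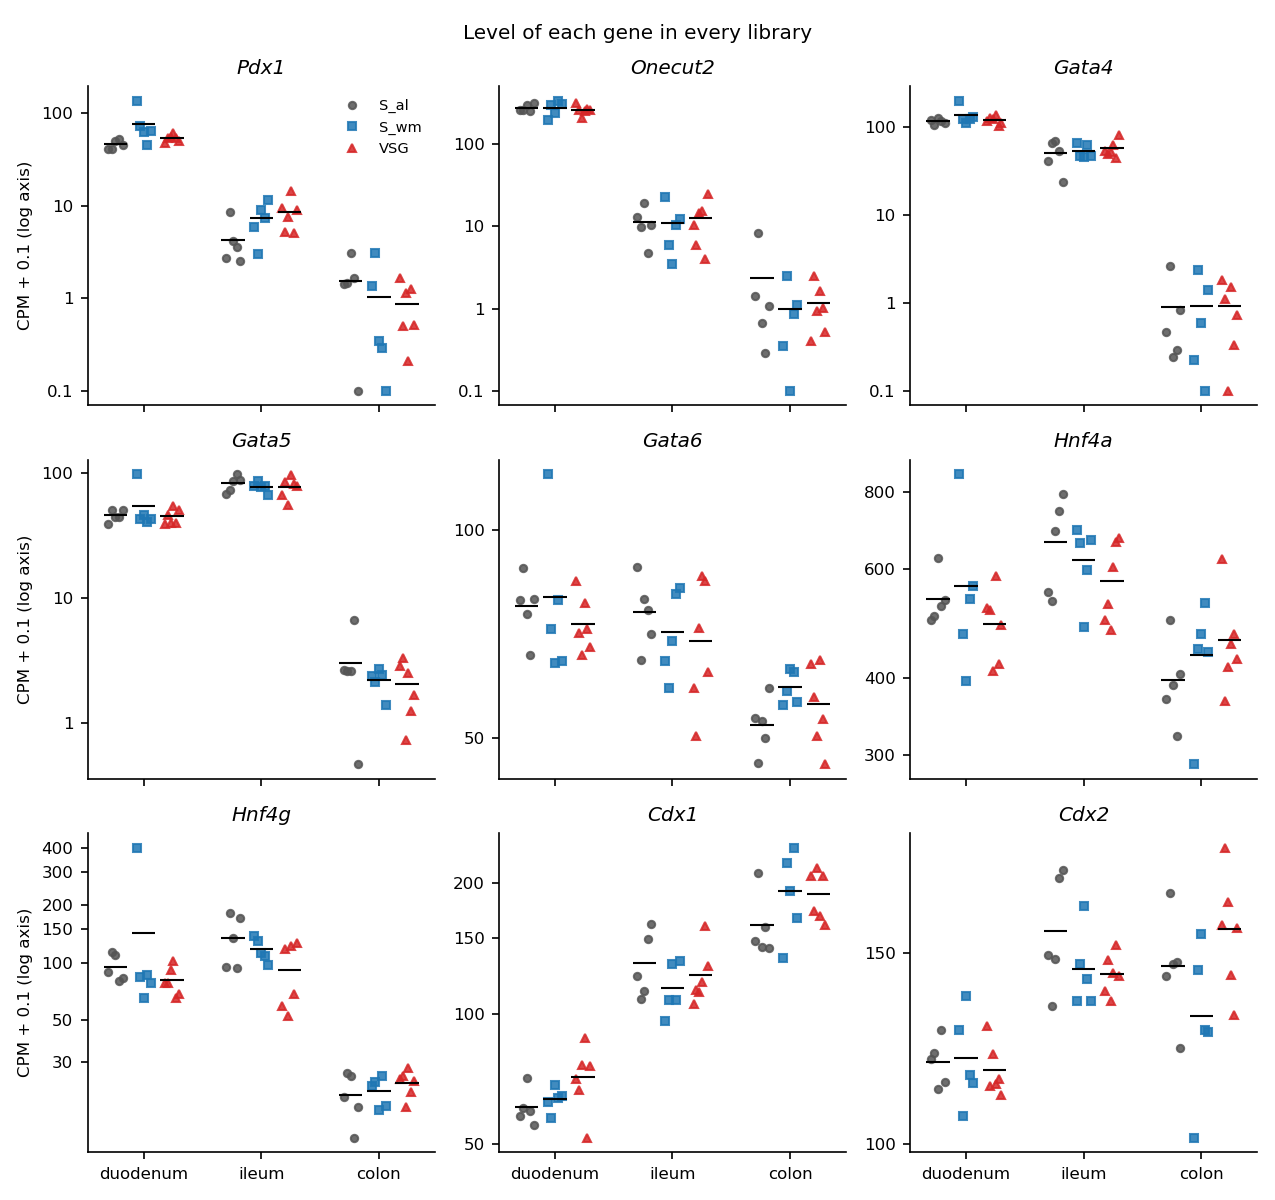
Level of each of the 9 genes in all 48 libraries, as CPM + 0.1 on a log axis that differs between panels, by region and surgery group; each point is 1 library and each bar a group mean. Pdx1, Onecut2 and Gata4 drop in steps from duodenum to colon, Gata5 and Hnf4g drop only at the colon, Cdx1 climbs, and the S_wm duodenal point far above its group for Hnf4g, at 402 CPM, is mouse 27.

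Pdx1 and Onecut2 had the steepest falls between duodenum and ileum. Pdx1 ranged from 40.5 to 137 CPM in the duodenum with a median of 52.9, from 2.40 to 14.4 CPM in the ileum with a median of 6.54, and from 0 to 2.98 CPM in the colon with a median of 1.10. No duodenal library overlapped with an ileal one, and all 15 mice with both regions were lower in the ileum. Pdx1 fell by 3.18 (log2) between duodenum and ileum (SE 0.239, adjusted p = 1.38e-14 by edgeR), a 9.07-fold difference, and fell by 2.69 from ileum to colon (SE 0.308, adjusted p = 5.35e-10). From duodenum to colon it fell by 5.87 (SE 0.295, adjusted p = 1.92e-21). The colonic values rest on 102 counts over 16 libraries, 2 of them at 0 and the highest at 21. Their within-group SD was 1.21 on the log2 scale, against 0.345 in the duodenum. The edgeR interval of the step from ileum to colon ran from -3.31 to -2.07.

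Onecut2 was more abundant in the duodenum and fell further. It ranged from 196 to 342 CPM in the duodenum with a median of 264, from 3.36 to 24.7 CPM in the ileum with a median of 10.5, and from 0 to 8.16 CPM in the colon with a median of 0.877. Duodenum and ileum were separated by a gap from 24.7 to 196 CPM. Onecut2 fell by 4.58 (log2) between duodenum and ileum (SE 0.276, adjusted p = 5.01e-17 by edgeR) and fell by 3.27 from ileum to colon (SE 0.344, adjusted p = 1.01e-10). From duodenum to colon it fell by 7.85 (SE 0.348, adjusted p = 1.57e-22). The step to the colon was in the same direction in 16 of 16 mice, although the highest colonic library, S_al mouse 32 at 8.16 CPM, lay above the lowest ileal one. The colonic total was 126 counts, and among the 12 libraries of ileum and colon with 1 shared second index the log2 difference was -2.14 (adjusted p = 0.0786).

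The GATA factors differed from one another in where their levels dropped. Gata4 ranged from 101 to 198 CPM in the duodenum with a median of 120, from 23.7 to 79.9 CPM in the ileum with a median of 52.0 and from 0 to 2.49 CPM in the colon with a median of 0.558. All 3 regions were separated from each other. Gata4 fell by 1.21 (log2) between duodenum and ileum (SE 0.161, adjusted p = 5.72e-08 by edgeR) and fell by 6.05 from ileum to colon (SE 0.237, adjusted p = 6.54e-25). The larger step on the log2 scale thus lay between ileum and colon, where the colonic total was 84 counts. The means were 122.8, 53.5 and 0.815 CPM, so in CPM the step from duodenum to ileum was the larger. From duodenum to colon it fell by 7.26 (SE 0.240, adjusted p = 5.75e-28).

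Gata5 was highest in the ileum. It ranged from 39.1 to 97.9 CPM in the duodenum with a median of 44.4, from 55.8 to 97.8 CPM in the ileum with a median of 78.7 and from 0.367 to 6.53 CPM in the colon with a median of 2.35. In CPM the duodenal and ileal ranges overlapped through 1 library, the duodenum of mouse 27, and 14 of 15 mice were higher in the ileum. Gata5 was higher in the ileum by 0.72 on the log2 scale (SE 0.137, adjusted p = 4.65e-05 by edgeR) and fell by 5.12 from ileum to colon (SE 0.179, adjusted p = 2.23e-27). From duodenum to colon it fell by 4.40 (SE 0.176, adjusted p = 8.8e-26). With the second library index as a covariate the rise to the ileum was 0.29 (adjusted p = 0.521), and with that covariate and without the duodenum of mouse 27 it was 0.80 (adjusted p = 0.116). Within the 1 index that duodenum and ileum shared, it was 0.34 with mouse 27 (adjusted p = 0.449) and 0.71 without it (adjusted p = 0.0119). In the S_wm group alone the rise was 0.51 (adjusted p = 0.214).

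Gata6 changed least of the GATA factors. It ranged from 64.1 to 120 CPM in the duodenum, from 50.3 to 88.2 CPM in the ileum and from 45.8 to 64.8 CPM in the colon, with medians of 73.8, 71.3 and 56.1. The regions overlapped, and 7 of 15 mice were higher in the ileum than in the duodenum. The ileal difference was -0.10 on the log2 scale with a 95% interval from -0.25 to 0.06 (adjusted p = 0.374 by edgeR), and was -0.50 with the second index as a covariate (adjusted p = 0.0068). The colon was lower than the duodenum by a log2 difference of -0.46 (SE 0.0785, adjusted p = 1.73e-06) in 15 of 15 mice. It was lower than the ileum by -0.37 (SE 0.0787, adjusted p = 0.000103) in 14 of 16 mice, and that difference was -0.27 in the S_wm group alone (adjusted p = 0.165) and -0.30 in the VSG group alone (adjusted p = 0.068).

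Per length of transcript, the makeup of the GATA trio differed from region to region. In TPM, the counts per kilobase of exon scaled to the same sum in every library, Gata4 made up 54.5% ± 2.93 of the summed trio in duodenal, 27.9% ± 5.67 in ileal and 2.17% ± 2.16 in colonic libraries (SD, n = 16 each). Gata5 made up 25.1% ± 2.56, 49.3% ± 5.29 and 7.29% ± 4.25, and Gata6 made up 20.5% ± 2.01, 22.7% ± 3.81 and 90.5% ± 4.67. The TPM of Gata5 itself overlapped more widely between duodenum and ileum than its CPM, from 11.4 to 25.5 in the duodenum and from 9.79 to 43.0 in the ileum. The summed level of the trio was 68.2 ± 11.7 in duodenal, 46.4 ± 17.2 in ileal and 10.4 ± 3.38 in colonic libraries in TPM. The log2 ratio of Gata4 to Gata6 counts within a mouse was lower in the ileum than in the duodenum by a mean difference of -1.18 (SE 0.0994) in 15 of 15 mice, and in the colon by -7.25 (SE 0.431) in 15 of 15. Both differences had p = 6.1e-05 in a two-sided exact sign-flip permutation test, the smallest value that 15 pairs can give, and p = 6.87e-05 after adjustment over the 9 ratio tests.

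**Figure D2:**
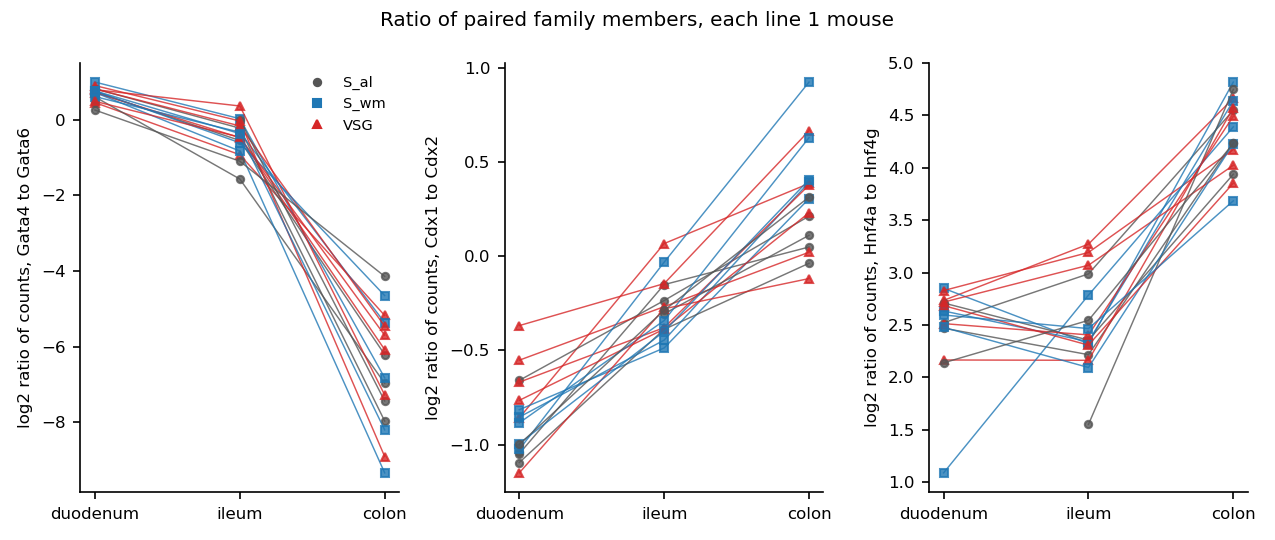
Log2 ratio of the counts of 2 family members in each mouse (y axes) in duodenum, ileum and colon (x axes), with each line 1 mouse marked by its surgery group. Gata4 to Gata6 falls in every mouse at each step, Cdx1 to Cdx2 rises in every mouse at each step, and Hnf4a to Hnf4g rises in every mouse from ileum to colon but in 6 of 15 from duodenum to ileum; the lowest duodenal point in the last panel is mouse 27.

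The caudal factors went the other way, and unequally. Cdx1 ranged from 51.7 to 88.0 CPM in the duodenum with a median of 64.4, from 96.5 to 161 CPM in the ileum with a median of 116 and from 134 to 242 CPM in the colon with a median of 170. In CPM every ileal library lay above every duodenal one, while ileum and colon overlapped. In TPM duodenum and ileum overlapped as well, from 18.5 to 60.0 in the duodenum and from 24.5 to 128 in the ileum. Cdx1 rose by 0.91 (log2) between duodenum and ileum (SE 0.0814, adjusted p = 6.47e-13 by edgeR) and by 0.55 from ileum to colon (SE 0.0806, adjusted p = 1.13e-07), the latter in 14 of 16 mice. In the S_al group alone the second step was 0.29 (adjusted p = 0.127). Between duodenum and colon Cdx1 rose by 1.46 (SE 0.0822, adjusted p = 7.82e-21). Markers of other cell types rose along the same axis: the summed level of 7 colonocyte markers had means of 129.6, 174.7 and 1326 CPM in duodenum, ileum and colon, and that of 7 goblet markers 3796, 4152 and 8740 CPM. After subtraction of group means the r of Cdx1 over 48 libraries was 0.428 with the colonocyte sum and 0.347 with the goblet sum, and the part of these cells in the Cdx1 values was not tested.

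Cdx2 was close to even along the gut. It ranged from 106 to 137 CPM in the duodenum, from 134 to 179 CPM in the ileum and from 101 to 187 CPM in the colon, with medians of 115, 145 and 145. Its spread between libraries of 1 group was also the smallest of the 9 factors in the duodenum, with a within-group SD of 0.101 on the log2 scale. Cdx2 was higher in the ileum than in the duodenum by 0.32 on the log2 scale (SE 0.0590, adjusted p = 2.19e-05 by edgeR) in 15 of 15 mice, and in the colon by 0.28 (SE 0.0590, adjusted p = 5.83e-05) in 14 of 15. The counts of mice, here and for the other single factors, are from CPM. In TPM the means were 63.4 ± 14.2, 62.8 ± 24.9 and 70.1 ± 22.2 in duodenum, ileum and colon, with no rise of the mean to the ileum. Colon and ileum differed by -0.04 with a 95% interval from -0.16 to 0.08, higher in 8 of 16 mice. With the second library index as a covariate the differences of ileum and of colon from the duodenum missed the threshold, at 0.25 (adjusted p = 0.176) and 0.18 (adjusted p = 0.347). In the S_wm group alone they missed it too, at 0.27 (adjusted p = 0.105) and 0.13 (adjusted p = 0.379). The log2 ratio of Cdx1 to Cdx2 rose by 0.57 (SE 0.0679) from duodenum to ileum and by 0.58 (SE 0.0681) from ileum to colon, in 15 of 15 and 16 of 16 mice (exact sign-flip permutation p = 6.1e-05 and 3.05e-05, both 6.87e-05 adjusted over 9 tests). Per length, Cdx1 was 41.6% ± 3.65 of the pair in duodenal, 51.6% ± 2.60 in ileal and 61.4% ± 4.46 in colonic libraries (SD, n = 16 each).

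Pdx1 and Cdx2 are neighbors among the ParaHox genes, so genes with different regional patterns lie close together. The annotated genes Gm27033, with 260 counts over all libraries, and Mir7k, with 0, lie between them. Pdx1 lies on the plus strand at chr5:147269959-147275848 and Cdx2 on the minus strand at chr5:147300805-147307270 (GRCm38), with 24956 bases between them. The promoter-side sequences of both, and of Gata5 and Hnf4a, are shown as examples of 4 patterns: falling in steps, close to even, near 0 in the colon, and expressed throughout. Each sequence is RefSeq's window (GRCm38.p6) of 250 bases before the annotated start, on the gene's own strand and printed only as far as the first base of a GENCODE exon of the gene. Capitals mark short words that were searched for on both strands. For GATA factors these were AGATAA together with the word TGATAA, as well as the word AGATAG together with the word TGATAG. For CDX factors they were TTTATG together with the word TTTATT. For HNF4 receptors they were CAAAGTCCA together with the word CAAAGGTCA. For PDX1 they were CTAATTA together with the word TTAATGA, and for ONECUT factors they were ATCGAT together with the word ATTGAT.
Pdx1, plus strand, chr5:147269847-147269958: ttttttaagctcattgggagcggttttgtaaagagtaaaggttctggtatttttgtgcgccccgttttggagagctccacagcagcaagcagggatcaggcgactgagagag
Cdx2, minus strand, chr5:147307271-147307499: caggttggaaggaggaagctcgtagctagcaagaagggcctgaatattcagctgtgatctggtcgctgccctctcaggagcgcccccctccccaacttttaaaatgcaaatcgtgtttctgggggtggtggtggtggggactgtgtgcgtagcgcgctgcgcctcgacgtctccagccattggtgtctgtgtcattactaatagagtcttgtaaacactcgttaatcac
Gata5, minus strand, chr2:180334700-180334929: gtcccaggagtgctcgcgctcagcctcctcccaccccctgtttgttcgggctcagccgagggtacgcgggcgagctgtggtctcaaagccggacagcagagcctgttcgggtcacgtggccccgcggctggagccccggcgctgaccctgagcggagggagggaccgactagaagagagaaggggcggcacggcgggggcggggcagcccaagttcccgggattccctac
Hnf4a, first start, plus strand, chr2:163506607-163506807: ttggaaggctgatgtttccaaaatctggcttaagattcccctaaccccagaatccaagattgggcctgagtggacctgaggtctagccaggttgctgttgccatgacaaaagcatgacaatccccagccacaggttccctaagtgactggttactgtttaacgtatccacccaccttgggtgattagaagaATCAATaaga

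None of these words occurred in the whole 250-base windows of Pdx1, Cdx2 or Gata5. The window of the first Hnf4a start held an ONECUT word, in capitals above as its reverse complement, and a GATA word, AGATAA, that straddles the printed end, with its first 3 bases printed unmarked and the rest in the first GENCODE exon. No matches overlapped one another. The window of the second Hnf4a start, at chr2:163546905-163547154, held both PDX1 words, 1 on each strand, and is not printed because it overlaps a GENCODE exon of Hnf4a. Over 32851 windows of the same length in the RefSeq table, a GATA word was found in 26.5%, a CDX word in 25.5%, an HNF4 word in 0.807%, a PDX1 word in 4.60% and an ONECUT word in 7.40%. These matches describe letters in a window and no site or binding was measured. The gene-level counts do not tell the Hnf4a starts apart.

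The HNF4 receptors were expressed throughout, and both were lower in the colon, Hnf4g by more. Hnf4a ranged from 395 to 855 CPM in the duodenum, from 479 to 795 CPM in the ileum and from 290 to 622 CPM in the colon, with medians of 517, 632 and 434. The 3 ranges overlapped. The difference of Hnf4a between ileum and duodenum was 0.22 on the log2 scale (SE 0.0929, adjusted p = 0.0564 by edgeR), above 0 in 12 of 15 mice, and missed the threshold. With the mouse as a fixed block the difference was 0.26 (adjusted p = 0.005), without the duodenum of mouse 27 it was 0.29 (adjusted p = 0.00437), and with the second library index as a covariate it was -0.14 (adjusted p = 0.654). Hnf4a fell by 0.53 from ileum to colon on the log2 scale (SE 0.0932, adjusted p = 5.23e-06) in 16 of 16 mice, and the colon was below the duodenum by a log2 difference of -0.30 (SE 0.0930, adjusted p = 0.00526). The difference between colon and ileum was -0.32 in the VSG group alone (adjusted p = 0.106). The difference between colon and duodenum was -0.09 in the VSG group alone (adjusted p = 0.687) and -0.37 in the S_wm group alone (adjusted p = 0.077). It was -0.75 with the index as a covariate (adjusted p = 0.00235), -0.22 without the duodenum of mouse 27 (adjusted p = 0.023), and -0.43 without that library and with that covariate (adjusted p = 0.19).

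Hnf4g ranged from 65.2 to 402 CPM in the duodenum with a median of 83.9, from 52.4 to 182 CPM in the ileum with a median of 115 and from 11.9 to 27.8 CPM in the colon with a median of 23.1. The colon was separated from both other regions. Hnf4g fell by 2.40 on the log2 scale from ileum to colon (SE 0.188, adjusted p = 1.32e-14 by edgeR) in 16 of 16 mice, and lay below the duodenum by -2.27 (SE 0.187, adjusted p = 3.89e-14) in 15 of 15. Ileum and duodenum differed by 0.13 (adjusted p = 0.619), by 0.42 without the duodenum of mouse 27 (adjusted p = 0.00334), and by -0.73 with the second index as a covariate (adjusted p = 0.0548). With that covariate and without that library the difference was 0.12 (adjusted p = 0.911). The log2 ratio of Hnf4a to Hnf4g was higher in the colon than in the ileum by 1.82 (SE 0.150) in 16 of 16 mice (exact sign-flip permutation p = 3.05e-05, adjusted p = 6.87e-05), and differed between ileum and duodenum by 0.09 (SE 0.147, p = 0.596 by the same exact test). Per length, Hnf4g was 24.98% ± 6.265 of the pair in duodenal, 24.9% ± 5.80 in ileal and 8.51% ± 1.87 in colonic libraries (SD, n = 16 each).

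Hnf4g moved with the enterocyte markers, so its values carry that measure beside them. After subtraction of the 9 group means, the log2 level of Hnf4g and the log2 sum of the 10 enterocyte markers had a Pearson r of 0.837 over 48 libraries, which share depth and composition. The r with the sum of the 12 EEC markers was -0.662 for Hnf4g, -0.503 for Hnf4a and between -0.435 and -0.0189 for the remaining factors. The duodenum of mouse 27, highest in Hnf4g and enterocyte sum and lowest in EEC sum, is among the 48. No r was computed without it. With the 7 colonocyte markers the r was 0.508 for Hnf4g and 0.580 for Hnf4a. The corresponding enterocyte values were 0.418 for Hnf4a, 0.382 for Gata5 and between -0.0572 and 0.285 for the other 6 factors. Between regions the enterocyte sum fell from a mean of 10690 CPM in the ileum to 605 CPM in the colon. In that contrast 7 of the 9 factors were lower, Hnf4g, Hnf4a, Gata4 and Gata5 among them. The part of enterocyte RNA in the values of Hnf4g, or of the other factors that fell, was not tested.

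**Figure D3:**
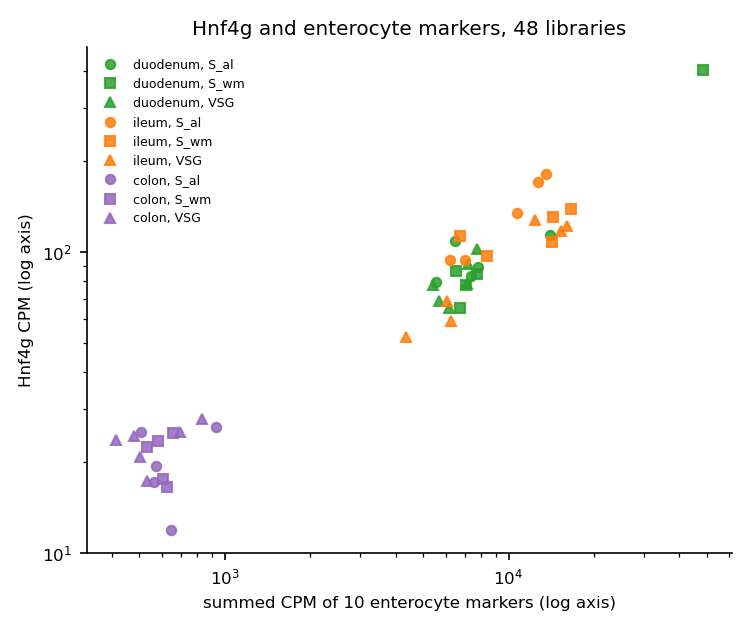
Hnf4g level (y axis, CPM, log scale) against the summed level of 10 enterocyte markers (x axis, CPM, log scale) in 48 libraries, with color for region and symbol for surgery group. Colonic libraries lie at 11.9 to 27.8 CPM of Hnf4g with at most 931 CPM of markers, and the point at the upper right is the S_wm duodenum of mouse 27.

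**Figure D4:**
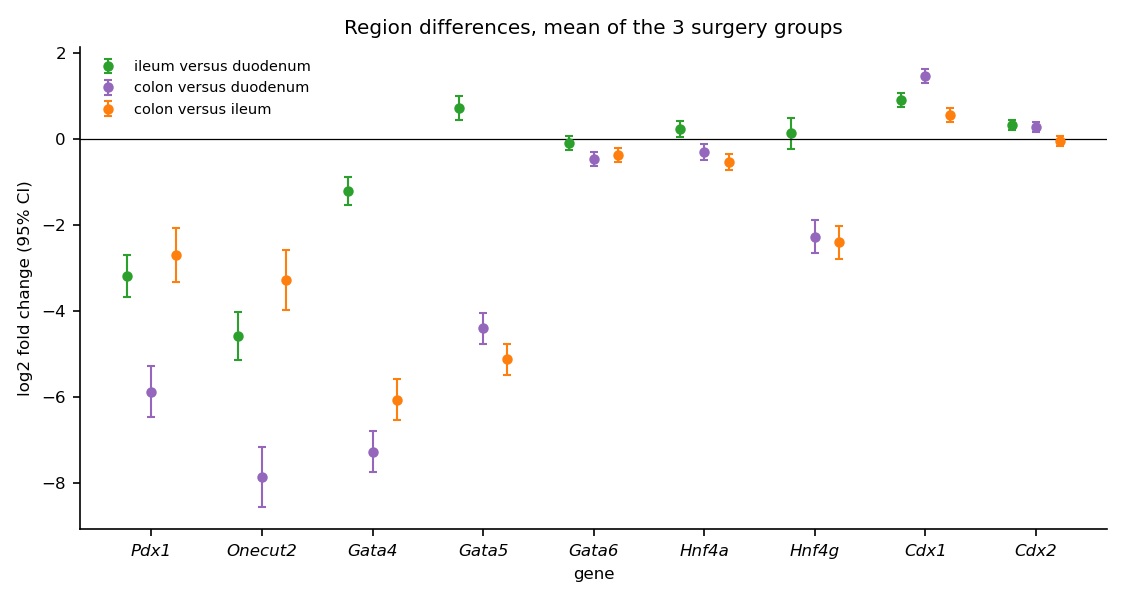
Log2 fold change between regions for each gene (y axis; points with 95% intervals from edgeR, mean of the 3 surgery groups) for the 3 region comparisons. Pdx1, Onecut2 and Gata4 are below 0 in all 3, Cdx1 is above 0 in all 3, and Gata6, Hnf4a and Cdx2 differ by less than Cdx1 from duodenum to colon.

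Levels of different genes were ordered per length. In the duodenum the order of means was Hnf4a (129.6 ± 28.97, SD, n = 16, in TPM), Cdx2 (63.4 ± 14.2), Cdx1 (45.4 ± 11.1), Hnf4g (42.6 ± 12.0), Gata4 (37.2 ± 6.53), Pdx1 (30.9 ± 6.14), Onecut2 (20.8 ± 6.63), Gata5 (17.1 ± 3.35) and Gata6 (14.0 ± 2.91). Beyond Hnf4a, no neighbors in that order differed by more than their summed SDs. In the ileum Hnf4a (124 ± 54.9) was followed by Cdx1 (68.6 ± 32.1) and Cdx2 (62.8 ± 24.9), and Pdx1 (2.92 ± 1.72) and Onecut2 (0.653 ± 0.369) came last, and the gaps from Gata6 (10.7 ± 4.58) to Pdx1 and from Pdx1 to Onecut2 were the ones larger than the summed SDs. In the colon Cdx1 (110 ± 27.5) and Hnf4a (97.7 ± 33.0) did not differ beyond their spread, Cdx2 stood at 70.1 ± 22.2, and Gata6 (9.40 ± 3.19) and Hnf4g (8.99 ± 3.47) followed, with gaps beyond the summed SDs below Cdx2 and below Hnf4g. Gata5, Pdx1, Gata4 and Onecut2 were each below 1 on this scale in the colon.

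Genes transcribed from the opposite strand within these loci were counted separately, and which strand setting was used in counting is not given in the sources used here. Plut, antisense to Pdx1, had 593 counts in duodenal, 28 in ileal and 12 in colonic libraries. Gata5os, antisense to Gata5, had 390, 225 and 7 counts. The transcript 1010001N08Rik, opposite Gata6, had 424, 374 and 175 counts, and Hnf4aos had 30, 23 and 2. Each total is over 16 libraries and came to at most 7.37% of its partner's counts over all regions.

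Other genes of the same families and programs were counted from lists chosen by known role. Of 8 GATA, ONECUT and CDX relatives and GATA cofactors, 4 passed the filter, and Cdx4, Gata3, Onecut1 and Zfpm2 did not. From duodenum to colon 2 of these 4 fell and 2 rose, beside 28.3% and 26.8% of all tested genes. Onecut3, the paralog of Onecut2, fell by 5.44 on the log2 scale (SE 0.260, adjusted p = 4.58e-22 by edgeR). Zfpm1, a cofactor that binds GATA factors, fell by 4.09 (SE 0.134, adjusted p = 3.08e-29). Gata2, a GATA factor of the blood lineage, rose by 3.29 (SE 0.306, adjusted p = 4.40e-13).

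Of 20 other regional regulators, 17 were tested, with 11 higher and 5 lower in colon against duodenum beside 26.8% and 28.3% of all tested genes, a median log2 difference of 0.51 against -0.01 over all tested genes. Osr2, a zinc-finger factor, rose by 4.17 in the colon (SE 0.230, adjusted p = 6.00e-20 by edgeR). Nr5a2, a nuclear receptor, rose by 2.09 (SE 0.114, adjusted p = 2.42e-21), and Meis2, a homeobox partner of Hox factors, fell by 5.04 from duodenum to ileum (SE 0.448, adjusted p = 8.65e-13). Between ileum and colon 8 of the 17 were higher and 5 lower, beside 23.8% and 25.4% of all tested genes. Creb3l3, a factor of lipid metabolism, fell by 4.36 there (SE 0.313, adjusted p = 2.08e-15).

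Intestinal genes known as targets of GATA, CDX or HNF4 factors were mostly lower in the colon. Of 17 tested, in colon against duodenum 13 were lower and 3 higher, beside 28.3% and 26.8% of all tested genes, with a median of -2.25 on the log2 scale against -0.01 over all tested genes, and 15 were lower and 1 higher against the ileum, beside 25.4% and 23.8%. Sis, the sucrase-isomaltase of the brush border, fell by 3.496 from duodenum to colon (SE 0.154, adjusted p = 1.01e-24 by edgeR). Apoc3 fell by 6.11 (SE 0.313, adjusted p = 7.10e-21) and Fabp1, a fatty-acid binding protein, fell by 7.74 (SE 0.434, adjusted p = 5.50e-19). Mttp, which loads lipid on lipoproteins, fell by 5.63 from ileum to colon (SE 0.353, adjusted p = 2.84e-17). From duodenum to ileum 6 rose and 3 fell, beside 17.2% and 16.6% of all tested genes, led by Fabp6 at 6.41 (SE 0.496, adjusted p = 1.23e-13) and Slc10a2 at 5.75 (SE 0.450, adjusted p = 1.36e-13), which carry bile acids, while Fabp1 fell by 2.10 (SE 0.309, adjusted p = 7.50e-07). Of the 10 enterocyte markers, 7 stand on this list, and their part in it was not tested.

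Of 7 endocrine genes known as targets of Pdx1, 5 were tested, and Ins1 and Ins2 did not pass the filter. In the colon 4 of the 5 lay below their duodenal level, beside 28.3% of all tested genes. Gip, the incretin of proximal K cells, fell by 1.97 (log2) between duodenum and ileum (SE 0.351, adjusted p = 1.85e-05 by edgeR) and fell by 7.09 from there to the colon (SE 0.448, adjusted p = 1.77e-17). Sst, the somatostatin of D cells, was lower in the ileum by a log2 difference of -1.20 (SE 0.302, adjusted p = 0.00171) and fell by 4.38 from there to the colon (SE 0.345, adjusted p = 2.18e-14). Slc2a2, a glucose transporter, fell by 5.76 from duodenum to colon (SE 0.510, adjusted p = 7.27e-13). Between the same regions the mean enterocyte sum fell from 9814 to 605 CPM, and its part in the Slc2a2 values was not tested.

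None of the 9 factors passed the threshold between surgery groups, in any region. The design asks whether VSG changes EECs beyond the sham operation and beyond the loss of weight, so VSG was compared with S_al and with S_wm, and S_wm with S_al. With edgeR, 0 of 9 factors were called in each of the 3 comparisons in each region and over the mean of the regions, and likewise with DESeq2 and limma voom. Over the mean of the regions, the edgeR and DESeq2 fits held no term for the mouse, so libraries of 1 mouse counted as separate replicates. The limma voom fit had the mouse as a random block. When the filter used only the libraries compared, 6 of the 9 passed it in the colon, so the colonic comparisons say little of the factors with few counts there. For VSG against S_al the call rate over all tested genes was 0% in each region and over their mean. For VSG against S_wm it was 0.245% over the mean of the regions, 0.225% within duodenum (34 genes, and 0 without the duodenum of mouse 27 or with the second index as a covariate), 0.0463% within ileum and 0.0595% within colon. For S_wm against S_al it was 0.0529% over the mean of the regions, 0% in duodenum and ileum and 0.0132% in the colon. The test of whether the surgery differences varied between regions called 0 factors and 0% of tested genes, with 741 genes at an unadjusted p under 0.05. Its lowest unadjusted p among the 9 factors was 0.101 for Pdx1 (adjusted p = 1 by edgeR).

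**Figure D5:**
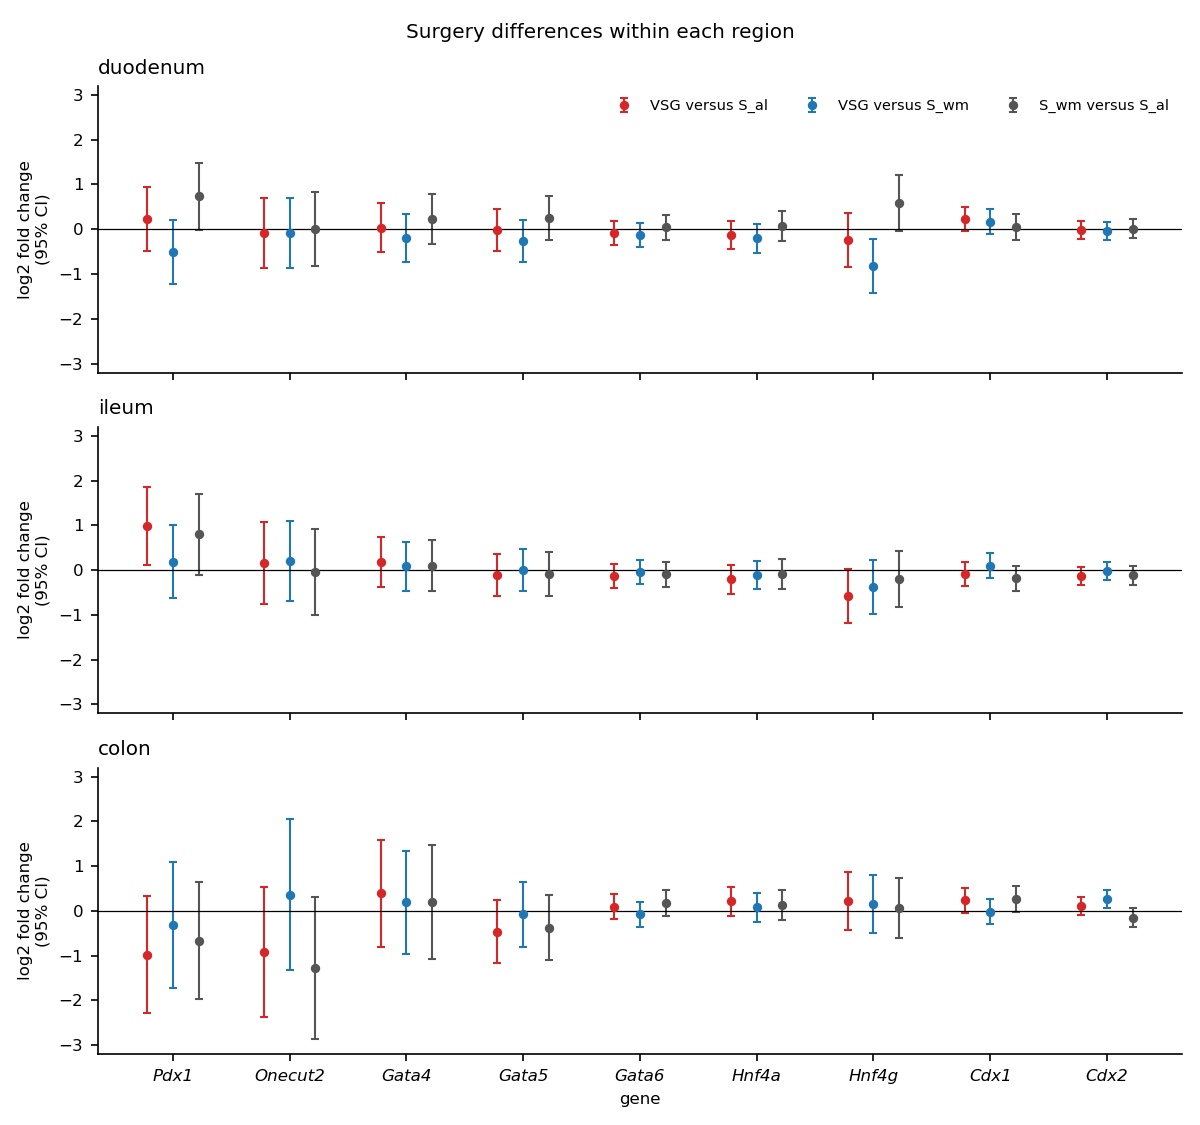
Log2 fold change between surgery groups in each region (panels; points with 95% intervals from edgeR) for each gene (x axis), in 3 comparisons. Most intervals span 0, those of Pdx1, Onecut2 and Gata4 in the colon are the widest, and the S_wm comparisons of duodenal Hnf4g include mouse 27.

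Over the 108 fitted surgery differences of single factors, the log2 values ranged from -1.27 to 0.98 and 3 had an unadjusted p under 0.05. The width of the intervals differed with the level of the gene. The intervals of all 12 comparisons lay between -0.36 and 0.47 for Cdx2, between -0.48 and 0.54 for Cdx1, between -0.41 and 0.46 for Gata6 and between -0.53 and 0.53 for Hnf4a. They reached from -2.86 to 2.05 for Onecut2 and from -2.28 to 1.86 for Pdx1, whose colonic counts are near 0.

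Pdx1 in the ileum was the first of the 3. Its S_al libraries held 2.40, 2.65, 3.45, 4.07 and 8.41 CPM, its S_wm libraries 2.93, 5.75, 7.33, 8.81 and 11.4 CPM, and its 6 VSG libraries from 4.999 to 14.38 CPM with a median of 8.16. Of the S_al libraries 4 of 5 lay below every VSG library, and the fifth overlapped. The difference of VSG from S_al was 0.98 on the log2 scale (SE 0.433, unadjusted p = 0.0279, adjusted p = 0.768 by edgeR), in a comparison where 6.16% of tested genes had an unadjusted p under 0.05. VSG and S_wm differed there by 0.18 with an interval from -0.628 to 0.9967. The duodenal Pdx1 values were 40.5, 40.9, 45.1, 50.02 and 52.1 CPM in S_al, 45.2, 62.6, 64.5, 72.4 and 137 CPM in S_wm, of which the highest is mouse 27, and 47.8 to 61.1 CPM with a median of 53.9 in VSG.

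Hnf4g in the duodenum was the second, and it rested on 1 library. Its S_wm libraries held 65.2, 77.9, 84.5, 86.3 and 402 CPM, the last being mouse 27, against 65.4 to 103 CPM with a median of 78.0 in VSG and 79.8, 83.2, 89.5, 109 and 114 CPM in S_al. The difference of VSG from S_wm was -0.83 on the log2 scale (SE 0.298, unadjusted p = 0.00804, adjusted p = 0.259 by edgeR), in a comparison where 8.71% of tested genes had an unadjusted p under 0.05. Without the duodenum of mouse 27 the difference was 0.03 (adjusted p = 1). Of the listed target genes, Fabp2 was called in this comparison, at -2.36 (SE 0.532, adjusted p = 0.0463), and was at -0.89 without that library (adjusted p = 1). Over the mean of the regions Sis was called for VSG against S_wm by edgeR, at -0.66 (SE 0.137, adjusted p = 0.0153), and at -0.60 without that library (adjusted p = 0.0307). That fit counted the libraries of 1 mouse as separate replicates. Fabp2 and Sis were both named after their values were seen.

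Cdx2 in the colon was the third. Its S_wm libraries held 101, 127, 127, 144 and 156 CPM, its S_al libraries 123, 143, 146, 147 and 170 CPM and its VSG libraries 131 to 187 CPM with a median of 159. The groups overlapped. The difference of VSG from S_wm was 0.27 on the log2 scale (SE 0.101, unadjusted p = 0.0116, adjusted p = 1 by edgeR), in a comparison where 3.65% of tested genes had an unadjusted p under 0.05. Among 27 exact permutation tests of the family ratios between surgery groups within a region, none had an adjusted p under 0.05, but the smallest p that 6 against 5 libraries can give is 0.00433, and that of 5 against 5 is larger, so no single difference could have passed after adjustment over the 27. The lowest was Cdx1 to Cdx2 in the colon, with a difference of S_wm from S_al of 0.40 (SE 0.128, exact two-sided p = 0.0159, adjusted p = 0.429 over the 27), with mean log2 ratios of 0.53 and 0.13.

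Once region and surgery group were taken out, the factors varied together only in part. Over 48 libraries and after subtraction of the 9 group means, the pairs with a Pearson r above 0.4 were Hnf4a with Hnf4g (0.515), Cdx1 with Hnf4a (0.498), Cdx1 with Cdx2 (0.484), Gata4 with Onecut2 (0.478) and Gata6 with Hnf4a (0.410). By the same measure the genes most like Hnf4g were Tfg (0.890), Pitpna (0.882) and Pepd (0.864), those most like Hnf4a were Vipr1 (0.853), Ankrd13a (0.852) and Lima1 (0.851), and those most like Cdx1 were Eif3f (0.739), Stt3b (0.734) and Psap (0.731). Those most like Pdx1 were Ebpl (0.680), Fbxo8 (0.613) and Slc19a2 (0.593), and those most like Onecut2 were St8sia3 (0.632), Praf2 (0.626) and Lgals2 (0.606). For Gata4 they were Igf2 (0.587), Clca3a1 (0.570) and Prr11 (0.567), for Gata5 Slc3a1 (0.631), Cdkn2c (0.626) and Chodl (0.610), for Gata6 Pak2 (0.683), Epas1 (0.677) and Pnpla2 (0.670), and for Cdx2 Gpaa1 (0.639), Slc4a2 (0.618) and Ptger4 (0.573). These are the highest of 15126 values per factor, over libraries that share depth and cell makeup and include the duodenum of mouse 27. They are given as descriptions.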

How the data were processed

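RNA of sorted EECs was sequenced by the authors with a stranded total RNA kit from 2 ng of input, as single reads of 50 bases, and aligned with STAR 2.5.1 to GRCm38. The deposited table holds raw read counts per gene for 48 libraries, and the strand setting of the counting is not given in the sources used here. Groups were taken from the labels. Every gene was kept in the library totals, and 15126 of 53465 genes passed edgeR's filter. Counts were scaled by TMM and tested with edgeR 4.0.16 (R 4.3.3, quasi-likelihood, robust) on 9 group means, and p-values were adjusted over the whole table by Benjamini and Hochberg (threshold 0.05). DESeq2 1.42.0, limma 3.58.1 with voom, other filters, the second library index, single surgery groups and leaving out libraries or mice were alternatives. Fits within 1 index, and the index covariate without the duodenum of mouse 27, were chosen after seeing the data. Exon lengths and positions came from GENCODE M21, and promoters from RefSeq. Family ratios used counts plus 0.5 and exact permutation tests (scipy 1.17.1). Scripts were tested on simulated data.

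The 9 factors and all lists were chosen with earlier results of these data known. All 9 are named in every region comparison, and in surgery comparisons where an unadjusted p was under 0.05. Of each list, up to 3 genes of lowest p per region comparison are named, except that some of these genes are not reported here, and the 3 genes most like each factor by Pearson r of log2 CPM (prior count 2) after subtraction of group means. Replicate numbers are mice, so libraries of 1 mouse pair by animal. Their deviations from the group means had a median correlation of 0.111 over 46 same-mouse pairs (from -0.0704 to 0.391) against -0.00869 between mice. No 2 libraries of a group differed by as little as sampling noise (chi-square per degree of freedom from 8.14 upward over 105 pairs).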

Additional observations from a re-analysis of the deposited data

Results flagged for a closer look

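Each of the 9 genes was looked at in each of the 9 groups, and in 8 of these 81 cases 1 library lay far from the others of its group by Dixon's criterion. Chance meets that criterion in about 1 of 20 independent cases, but these share libraries, and 7 of the 8 came from 2 libraries. The S_wm duodenum of mouse 27 accounted for 4 of them: Gata4 at 198.0 CPM against 108.6 to 128.8 CPM in the other 4 libraries, Gata5 at 97.85 against 40.57 to 46.28 CPM, Gata6 at 120.2 against 64.06 to 79.13 CPM, and Hnf4g at 402.1 against 65.23 to 86.33 CPM. In TPM that library was the lowest of its group for Gata4, at 26.36 against 35.14 to 47.19. It was also the lowest for Gata6, at 9.603 against 12.45 to 18.55. Gata5 lay within its group, at 15.52 against 14.81 to 19.91, so the GATA values were not high on that scale. Hnf4g stayed the highest, at 79.46 against 34.96 to 50.06. The same library held 48320 CPM of enterocyte markers and 12260 CPM of EEC markers, and the part of these in the 4 values was not tested.

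The S_al colon of mouse 32 accounted for 3 more: Gata4 at 2.493 CPM against 0.1406 to 0.7344 CPM, Onecut2 at 8.158 against 0.1919 to 1.34 CPM, and Cdx1 at 211.2 against 142.1 to 158.7 CPM. In TPM its Gata4 (0.5734) and Onecut2 (0.4513) were still the highest of the group, and its Cdx1 (108.4) lay within a range from 70.58 to 140.5. Its enterocyte sum of 931.4 CPM was the highest of the 16 colonic libraries, the next being 832.8 CPM, and its part was not tested. The last was Pdx1 in the S_al ileum of mouse 24, at 8.413 CPM against 2.398 to 4.067 CPM. In TPM it lay within its group, at 2.285 against 0.6538 to 2.302.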

How the results depend on the processing

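The number of the 9 factors called stayed between 4 and 8 for ileum against duodenum, between 7 and 9 for colon against duodenum and between 6 and 8 for colon against ileum, and was 0 for every surgery comparison under every alternative run. Pdx1, Gata4, Onecut2 and Cdx1 kept their call between ileum and duodenum in all 33 alternatives. With the mouse as a fixed replicate block, Hnf4a between ileum and duodenum passed the threshold, at 0.26 (adjusted p = 0.005 by edgeR), and no other region call of a factor changed.

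Sign changes were followed for the region differences, the family ratios and the 3 surgery differences with an unadjusted p under 0.05. Between ileum and duodenum, Hnf4a was -0.14 with the second index as a covariate and -0.14 within index D501, and Hnf4g was -0.73, and -0.69 within that index, and -0.29 in the S_wm group alone. Cdx2 between colon and ileum was 0.14 in the VSG group alone and 0.0609 within index D503. Hnf4g in VSG against S_wm duodenum ranged from -1.01 to 0.032 over the alternatives, with 0.032 without the library of mouse 27 and 0.0316 without the whole mouse, and the log2 ratio of Hnf4a to Hnf4g between ileum and duodenum was then -0.0217, within a range from -0.0217 to 0.14 over the mice left out in turn. Their causes were not tested. Counts of all genes called between ileum and duodenum ranged from 1323 to 5921 against 5110, for VSG against S_wm in the duodenum from 0 to 226 against 34 (0 without mouse 27 and 226 without mouse 31), and for S_wm against S_al there from 0 to 263 against 0 (263 with the second index as a covariate). Low counts limit Pdx1, Gata4 and Onecut2 in the colon, which had 102, 84 and 126 counts over 16 libraries, and Pdx1 in VSG against S_wm colon was 0.35 with limma voom against -0.31 (adjusted p = 1 in both). Duodenum and colon shared 1 index, with 1 colonic library, so index and region could not be told apart within it.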
